A study of Mus musculus with 8 samples.

Results

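The TRIM genes described here are 7 interferon-induced members of the tripartite motif family: Trim30a, Trim30d, Trim12a, Trim12c, Trim21, Trim34a and Trim14. They were chosen by name and matched to GENCODE mouse M21, which gave 7 of the 55450 gene rows and 7 of the 69 genes whose symbol is Trim followed by a number. Total RNA was sequenced from RAW264.7 cells, a mouse macrophage line transformed by Abelson leukaemia virus. The groups were cells carrying an shRNA against Dis3l2 (shDis3l2) and cells carrying a non-silencing shRNA (shNS), both grown for 4 days with 1 µg/mL doxycycline (3 libraries each), and both lines grown for 4 days without it (1 library each). In inducible vectors doxycycline turns shRNA expression on, and Dis3l2 encodes an exoribonuclease that degrades uridylated RNA. Nothing in the labels says whether a line was 1 clone or whether replicates were separate cultures, so p-values measure the spread between these libraries, which may be technical.

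TRIM proteins carry B-box and coiled-coil domains, most also a RING domain that makes them E3 ubiquitin ligases, and many end in a PRY-SPRY domain that binds their target. Type I interferon acts through receptor-bound kinases on transcription factors that bind the interferon-stimulated response element (ISRE) of target genes. In macrophages several TRIM genes are such targets, and their products act as antiviral effectors or as brakes and amplifiers of innate sensing.

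Of the 7 genes, 6 lie on chromosome 7 and Trim14 lies on chromosome 4 (ENSMUSG00000039853, 46493781 to 46536141, minus strand, GRCm38, protein coding, as are all 7). Trim34a (ENSMUSG00000056144, 104244457 to 104262234, plus strand), Trim12a (ENSMUSG00000066258, 104299894 to 104315466), Trim12c (ENSMUSG00000057143, 104338754 to 104353362), Trim30a (ENSMUSG00000030921, 104409025 to 104465193) and Trim30d (ENSMUSG00000057596, 104470014 to 104507849), the last 4 on the minus strand, sit in 1 cluster with Trim6, Trim5, Trim34b, Trim30b, Trim30c and the pseudogene Trim30e-ps1. Trim21 lies apart (ENSMUSG00000030966, 102557921 to 102565486, minus strand).

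Promoter sequence was available in the RefSeq table (GRCm38.p6) for 6 of the 7 genes, and it is shown because these genes share a feature there. The sequence was not used to choose them. They were chosen as interferon-induced, so an ISRE-like motif in them is no independent support. The windows ran from 250 bases before to 50 bases after each start. All 7 windows of these 6 genes held an ISRE-like motif, GAAA followed by any 2 bases and a second GAAA, on either strand (2 overlapping matches in Trim21), against 3.44% of all 32851 windows. The GAS-like motif TTCNNNGAA, named after the gamma-activated sequence, was in none of the 7 windows and in 8.3% of all windows. The stretches below are written along each gene's own strand, with the ISRE-like match in capitals.
Trim30a, upstream start, chr7:104465185-104465264: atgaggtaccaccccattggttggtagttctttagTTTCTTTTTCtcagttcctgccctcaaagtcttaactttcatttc
Trim30a, downstream start, chr7:104446079-104446158: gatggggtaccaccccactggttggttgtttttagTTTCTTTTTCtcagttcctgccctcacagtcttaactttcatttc
Trim30d, chr7:104507846-104507925: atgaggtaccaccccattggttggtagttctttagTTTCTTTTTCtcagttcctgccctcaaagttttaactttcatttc
Trim12a, chr7:104315446-104315520: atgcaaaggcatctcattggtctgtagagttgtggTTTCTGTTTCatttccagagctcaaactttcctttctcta
Trim12c, chr7:104353334-104353413: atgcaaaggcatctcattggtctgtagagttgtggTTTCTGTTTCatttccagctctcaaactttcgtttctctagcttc
Trim21, chr7:102565433-102565504: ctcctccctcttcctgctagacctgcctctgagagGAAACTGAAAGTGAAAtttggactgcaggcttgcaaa
Trim34a, chr7:104244432-104244506: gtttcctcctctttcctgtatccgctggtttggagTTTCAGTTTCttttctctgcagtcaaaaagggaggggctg
Counted from the start, the first base of the match was at -36 in Trim30a (upstream start), at -41 in Trim30d and at -29 in Trim12c. It lay 10 bases after the start in Trim12a and Trim34a. The Trim30a (upstream start) and Trim30d windows aligned over 294 columns with 93.9% identity, and those of Trim12a and Trim12c over 261 columns with 94.6%. The 2 Trim30a windows aligned over 266 columns with 89.5% identity, so the 7 windows are not independent of each other. The windows of the neighbours Trim6, Trim34b, Trim30b and Trim30c held no ISRE-like match, and that of Trim5 held 1. A match is a run of letters and not a measured binding site.

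**Figure D1:**
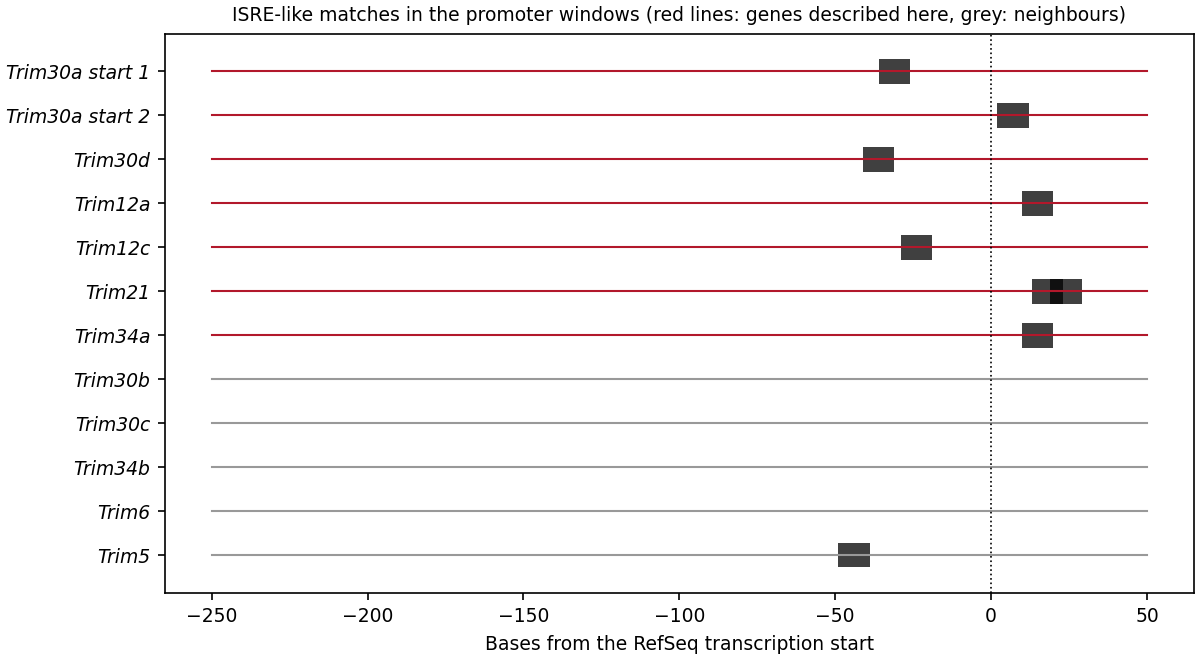
ISRE-like matches (dark boxes, 10 bases each) in RefSeq promoter windows, by distance in bases from the transcription start (dotted line), for the TRIM genes described (red lines) and their cluster neighbours (grey lines). All 7 red windows hold a match, and among the 5 grey windows Trim5 holds 1.

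With doxycycline, 3 of the 6 TRIM genes that could be tested were higher in shDis3l2 than in shNS: Trim30a, Trim30d and Trim12c. Among all 13752 genes tested 2.13% were higher, 4.01% lower and 6.14% changed in either direction, at an adjusted p under 0.05. Unless another tool is named, adjusted p-values come from the quasi-likelihood test of edgeR over all genes. All 6 had a positive log2 fold change, with a median of 0.91 against -0.0023 for all genes tested. The filter on low counts kept 6 of the 7 genes, and Trim12a did not pass it. Trim30d passed only through the shDis3l2 libraries, where it is high, so it had to differ between the lines once tested. Leaving it aside, 2 of 5 genes were higher and the median is the value of Trim12c, 0.72. Levels are library-scaled CPM values (TMM-normalized) over 8 libraries of 30341847 to 45557831 counts. In bulk RNA, more cells expressing a gene and more RNA per cell cannot be told apart.

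Trim30a, which in mouse restrains Toll-like receptor signalling through loss of TAB2 and TAB3 and also acts on STING, was at 95.3, 65.0 and 71.4 CPM in shDis3l2 with doxycycline, against 35.5, 27.7 and 25.4 CPM in shNS with doxycycline. The groups did not overlap, and shDis3l2 replicate 1 was the highest library. The means were 77.3 ± 16.0 CPM in shDis3l2 and 29.5 ± 5.28 CPM in shNS (SD, n = 3 each), and the log2 fold change of 1.39 ± 0.20 (SE) had an adjusted p of 0.0107. This call was kept in each of the 6 fits that left out 1 library (adjusted p 0.0105 to 0.0380).

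Trim30d, its neighbour and close relative, was nearly absent except in shDis3l2 with doxycycline. Its values were 1.37, 1.66 and 2.16 CPM in shDis3l2 with doxycycline (60, 57 and 73 counts), against 0, 0.146 and 0.115 CPM in shNS with doxycycline (0, 5 and 4 counts). The lowest shDis3l2 library was above the highest shNS library. The ratio of summed counts was 19.0 (95% counting interval 9.80 to 42.2), and the log2 fold change of 4.24 ± 0.70 (SE) had an adjusted p of 0.0168. Dropping any shDis3l2 replicate ended the call, at an adjusted p of 0.0563 without replicate 1, 0.0697 without replicate 2 and 0.0688 without replicate 3. Trim30a and Trim30d transcripts share 3.24% and 3.23% of their distinct 150-base stretches, the read length, so their counts are split by estimate where they are alike. With Trim30a, Trim30b, Trim30c and Trim30d summed, the log2 fold change was 1.43 (adjusted p = 0.00954).

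Trim12c, a mouse relative of the human restriction factor TRIM5 that works with the ligase TRAF6, was at 32.5, 28.9 and 32.5 CPM in shDis3l2, against 21.1, 16.7 and 19.1 CPM in shNS, both with doxycycline. The groups did not overlap and each kept within a narrow range. Its log2 fold change of 0.72 ± 0.14 (SE, adjusted p = 0.0285) was the smallest of the 3 calls. It was lost without any 1 library other than shNS replicate 1 (adjusted p 0.0614 to 0.112). Its near twin Trim12a had 0 counts in every doxycycline library and in shDis3l2 without doxycycline, and 1 count in shNS without doxycycline. The floor of 3 counts per library is 0.0686 to 0.0945 CPM, so Trim12a was not detected above it. Its promoter window carries the same ISRE-like letters as that of Trim12c. RAW264.7 cells come from BALB/c mice and the reference genome from another strain, and what this does to counts of Trim12a was not tested. Trim5, whose window was identical to that of Trim12a over 241 aligned columns, was also near 0, with at most 0.0591 CPM in a library.

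Trim34a, the mouse counterpart of human TRIM34, was at 3.38, 4.58 and 5.02 CPM in shDis3l2 and at 2.39, 1.87 and 1.78 CPM in shNS, both with doxycycline. The groups did not overlap, yet the gene missed the threshold at a log2 fold change of 1.10 ± 0.28 (SE, 95% interval 0.46 to 1.75, adjusted p = 0.0634), and DESeq2 called it (adjusted p = 0.00613). Non-overlap with shDis3l2 above shNS was found for 4 of the 6 genes and for 13.2% of all genes tested. For all genes it was 14.6% with shDis3l2 below shNS and 27.7% in either direction. Trim30d is among the 4, and it passed the filter only through shDis3l2. The neighbour Trim34b, which holds 8.06% of the distinct 150-base stretches of Trim34a transcripts (29.5% of those of 75 bases), had a log2 fold change of 1.07 (adjusted p = 0.124).

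Trim21 and Trim14 overlapped between the lines. Trim21, a cytosolic antibody receptor and E3 ligase, was at 6.45, 9.81 and 11.1 CPM in shDis3l2 with doxycycline, against 4.97, 5.56 and 7.43 CPM in shNS with doxycycline. Its log2 fold change was 0.61 (95% interval -0.018 to 1.23, adjusted p = 0.254), and shDis3l2 replicate 1 lay below shNS replicate 3. Trim14, which has no RING domain and acts as an adaptor for MAVS at mitochondria and as a stabilizer of cGAS, was at 30.4, 23.6 and 23.5 CPM in shDis3l2 and at 22.3, 23.9 and 20.4 CPM in shNS, both with doxycycline. Its log2 fold change was 0.22 (95% interval -0.14 to 0.58, adjusted p = 0.487). Over the 6 libraries an exact two-sided permutation test gave p = 0.20 for Trim21 and p = 0.30 for Trim14. In the 4 genes that did not overlap the exact permutation p was 0.10, below which 3 against 3 libraries cannot go.

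**Figure D2:**
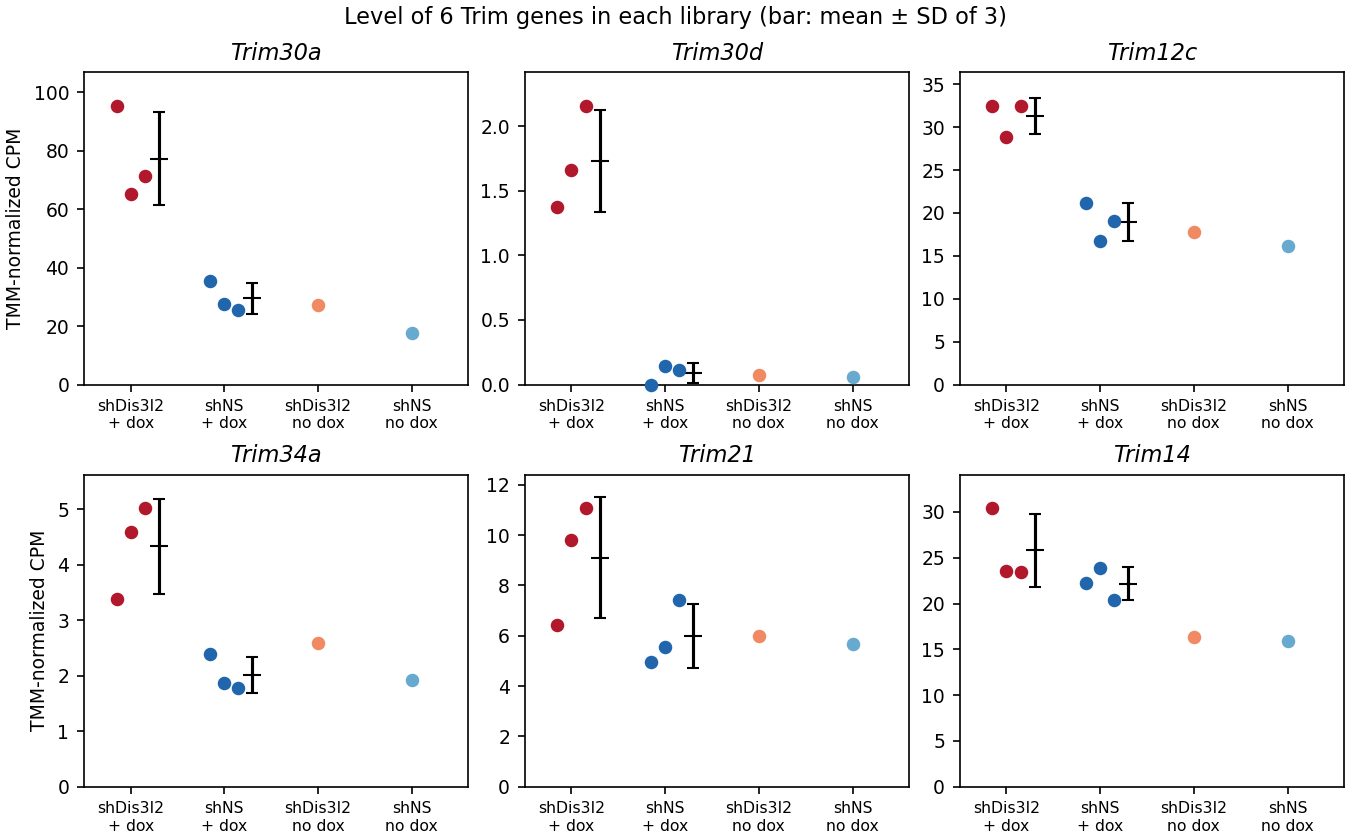
TMM-normalized CPM of 6 TRIM genes in each of the 8 libraries, by line and doxycycline, with bars for the mean ± SD of the 3 doxycycline replicates. In the shDis3l2 doxycycline group Trim30a, Trim30d, Trim12c and Trim34a lie above every other library, while Trim21 and Trim14 overlap shNS.

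The 3 shDis3l2 doxycycline libraries did not order the genes alike. Replicate 1 was the highest of them for Trim30a (95.3 CPM) and Trim14 (30.4 CPM) and the lowest for Trim30d (1.37 CPM), Trim34a (3.38 CPM) and Trim21 (6.45 CPM). Summed over the 7 genes, the libraries held 169, 134 and 146 CPM in shDis3l2 with doxycycline, 86.2, 75.9 and 74.1 CPM in shNS with doxycycline, 70.0 CPM in shDis3l2 without it and 57.5 CPM in shNS without it. Trim30a gave 48.7 to 56.3% of that sum in shDis3l2 with doxycycline and 34.2 to 41.1% in shNS with doxycycline.

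Per kilobase of exon Trim30a had the highest level and Trim30d the lowest of the 6 genes in both lines with doxycycline. In shDis3l2 with doxycycline Trim30a was at 18.8 ± 3.89 CPM per kb, followed by Trim12c (8.36 ± 0.559), Trim14 (5.95 ± 0.920), Trim21 (2.45 ± 0.644), Trim34a (1.67 ± 0.327) and Trim30d (0.461 ± 0.106, SD, n = 3). In shNS with doxycycline Trim30a was at 7.18 ± 1.28 CPM per kb, Trim14 (5.11 ± 0.408) and Trim12c (5.07 ± 0.590) did not differ beyond their spread, and Trim21 (1.61 ± 0.345), Trim34a (0.778 ± 0.127) and Trim30d (0.0232 ± 0.0205) followed. In shDis3l2 the spreads of Trim21 and Trim34a overlapped.

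**Figure D3:**
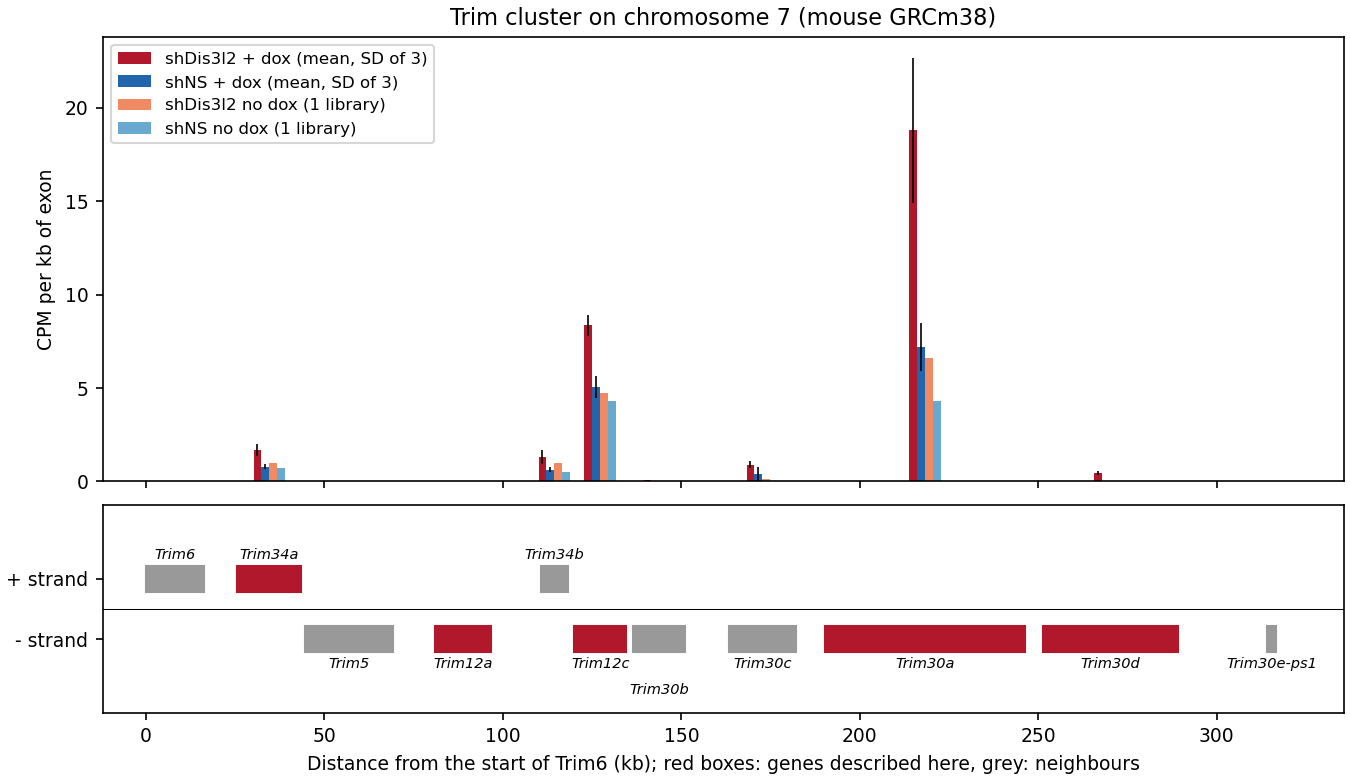
Level in CPM per kb of exon (top; bars for the doxycycline groups are means with SD of 3, others single libraries) above a map of the chromosome 7 TRIM cluster, by distance in kb from the start of Trim6 (bottom; genes described here in red). Trim30a (18.8 in shDis3l2 and 7.18 in shNS, with doxycycline) and Trim12c carry most of the signal, and Trim6, Trim5, Trim12a and the pseudogene are at or near 0.

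Doxycycline was then compared with its absence inside each line, to see whether the gap between lines was present without the drug. Across genes the shNS library without doxycycline correlated at 0.984 with shNS replicate 2 and at 0.935 with replicates 1 and 3. In shNS an effect of the drug and this split of the libraries cannot be told apart. Every one of the 6 genes was higher in all 3 doxycycline libraries of shDis3l2 than in the shDis3l2 library without it, as were 29.4% of 15250 genes. In shNS this held for 3 of the 6 (Trim30a, Trim12c and Trim14), against 23.8% of all genes. The same 3 genes were higher in both lines, as were 7.55% of all genes. Trim30d, counted among the 6 in shDis3l2, passed the filter only through the doxycycline libraries of that line, so its place there was fixed. In shDis3l2 Trim30a averaged 77.3 CPM with doxycycline, against 27.2 CPM without it, a ratio of 2.84 (95% interval of the log2 fold change 0.79 to 2.22). In shNS it averaged 29.5 CPM with doxycycline, against 17.7 CPM without it, a ratio of 1.67 (log2 interval 0.051 to 1.42).

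Trim12c averaged 31.3 CPM with doxycycline in shDis3l2, against 17.8 CPM without it (log2 fold change 0.82), and 19.0 CPM with doxycycline in shNS, against 16.2 CPM without it (0.23). Trim30d had 3 counts in shDis3l2 without doxycycline and 2 in shNS without it. Its ratio of summed counts, with over without doxycycline, was 22.3 in shDis3l2 (95% counting interval 7.51 to 109) and 1.63 in shNS (0.337 to 15.5). For Trim34a the log2 effect was 0.74 in shDis3l2 and 0.069 in shNS, and for Trim21 it was 0.60 in shDis3l2 and 0.082 in shNS. For Trim14 it was 0.66 in shDis3l2 and 0.48 in shNS, the smallest gap between the lines.

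With 1 library without the drug per line, assumed to vary like the others, edgeR called 0% of genes and 0 of these 6 in either line (4 of 6 in shDis3l2 and 1 of 6 in shNS at an unadjusted p under 0.05, as were 504 of 15250 genes in shDis3l2 and 646 in shNS). DESeq2 called 1 of them in shDis3l2, Trim30a (adjusted p = 0.0023), and 0 in shNS, among 64 genes called in shDis3l2 and 72 in shNS. limma-voom called 0 of the 6 in both, with 0 genes called in shDis3l2 and 1 in shNS. The difference between the lines in the doxycycline effect was positive for all 6 genes, from 0.18 (Trim14) to 3.79 (Trim30d) with 0.77 for Trim30a (95% interval -0.16 to 1.70). edgeR called 0 of the 6 there and 0% of all genes, and 0 of the 6 had an unadjusted p under 0.05 (577 of all genes). DESeq2 called 34 genes and limma-voom 0 for this difference, with 0 of the 6 in each. These contrasts share the doxycycline libraries with the comparison of lines. Each count of the 6 genes includes Trim30d, which passed the filter only through shDis3l2 with doxycycline.

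**Figure D4:**
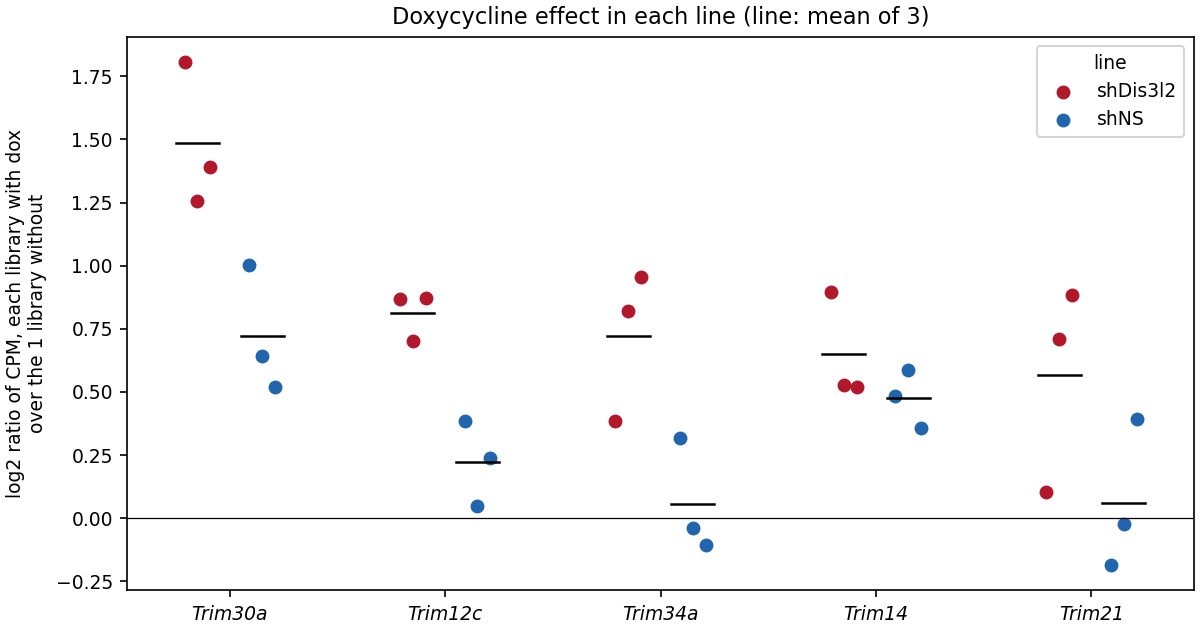
Log2 ratio of CPM in each doxycycline library over the 1 library without it, for 5 TRIM genes in shDis3l2 (red) and shNS (blue), with lines at the mean of 3. Ratios for Trim30a run from 1.26 to 1.81 in shDis3l2 and from 0.52 to 1.00 in shNS, and those of Trim14 and Trim21 overlap between the lines.

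Without doxycycline the lines were close for most of these genes, with 1 library each and no test. As the shNS library was most like shNS replicate 2, line and the split within shNS cannot be told apart here. Trim30a was at 27.2 CPM in shDis3l2 and 17.7 CPM in shNS, a ratio of 1.54 (95% counting interval 1.39 to 1.70). The ratio was 1.35 for Trim34a (0.985 to 1.86), 1.10 for Trim12c (0.983 to 1.23), 1.06 for Trim21 (0.876 to 1.28) and 1.03 for Trim14 (0.916 to 1.15). Trim30a was the only 1 of the 6 at least 1.5-fold higher in shDis3l2, as were 16.9% of 15250 genes (18.3% were at least 1.5-fold lower, 35.2% either).

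Across the whole TRIM family with doxycycline, 38 genes were tested. Of the 32 that are not among the 7 described, edgeR called 0 higher and 4 lower, with a median log2 fold change of -0.097 (4 higher and 6 lower at an unadjusted p under 0.05, 3 and 5 by DESeq2, 0 and 3 by limma-voom). The 4 lower in shDis3l2 were Trim2 (adjusted p = 0.00314), Trim47 (log2 fold change -3.88, adjusted p = 0.00962), Trim36 (-1.29, 0.0142) and Trim16 (-2.16, 0.0432). Trim2, an E3 ligase best known from neurons, had values of 0.0457, 0 and 0 CPM in shDis3l2 and of 9.57, 3.69 and 5.32 CPM in shNS. It had 2 counts in shDis3l2, a ratio of summed counts of 0.00293 (95% counting interval 0.000354 to 0.0106). These 4 were named by the smallest adjusted p, as were Trim39 (0.59, adjusted p = 0.0625) and Trim56 (0.52, adjusted p = 0.0721), an antiviral ligase. Of 11 tested TRIM genes and relatives with antiviral roles, 1 was higher in shDis3l2, Pml, the organizer of nuclear bodies. Pml had 91.8, 68.4 and 68.6 CPM in shDis3l2 and 50.5, 36.5 and 35.4 CPM in shNS (log2 fold change 0.90, adjusted p = 0.0419). Trim25, the ligase that acts on the RNA sensor RIG-I, was not called (0.50, adjusted p = 0.120).

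**Figure D5:**
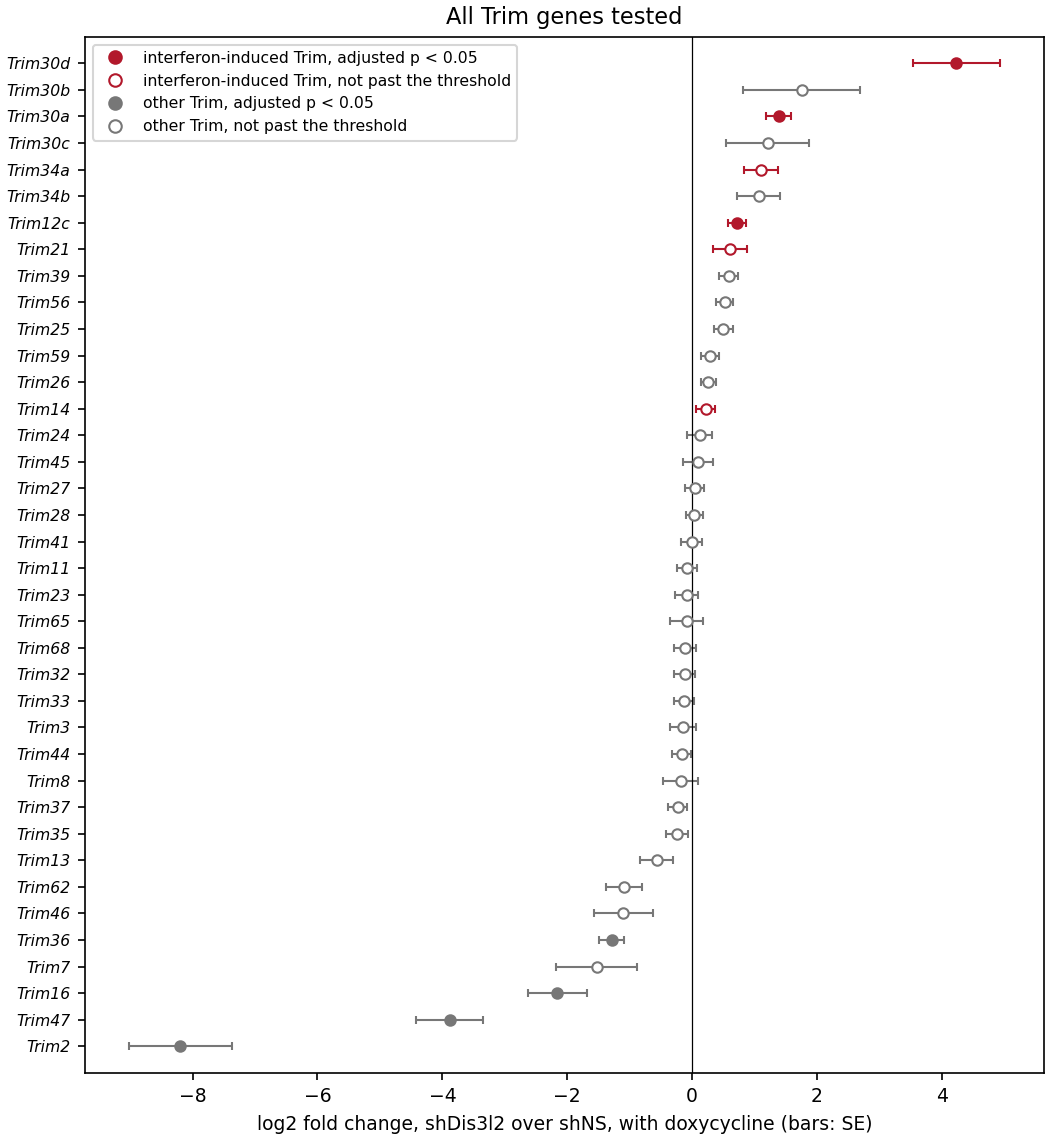
Log2 fold change (points, bars SE) of shDis3l2 over shNS with doxycycline for all 38 TRIM genes tested, with filled points for an adjusted p under 0.05. The TRIM genes described here (red) run from 0.22 to 4.24, and the 4 filled grey points (Trim2, Trim47, Trim16 and Trim36) are all below 0.

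Inside the cluster 3 of the 6 neighbours were tested and edgeR called 0 (1 at an unadjusted p under 0.05, 0 by DESeq2 and 0 by limma-voom). Trim30c was at 1.19, 1.55 and 1.89 CPM in shDis3l2 and at 1.42, 0.351 and 0.230 CPM in shNS, so shNS replicate 1 lay within the shDis3l2 range. Among 160 other genes within 1000 kb of the cluster, 102 were olfactory receptor genes and 2 passed the filter, neither called by edgeR (1 lower at an unadjusted p under 0.05, 1 lower by DESeq2, 0 by limma-voom). Of 18 tested genes within 1000 kb of Trim21, edgeR called 0 (1 lower at an unadjusted p under 0.05, 1 lower by DESeq2, 0 by limma-voom). Around Trim14, 2 of 16 were called, Col15a1 higher (log2 fold change 1.88, adjusted p = 0.0218) and Tbc1d2 lower (-2.84, adjusted p = 0.0213).

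Type I interferon pathway genes were higher in part. Of 13 tested with doxycycline, edgeR called 5 higher in shDis3l2 than in shNS and 0 lower, with a median log2 fold change of 0.71. Isg15, a ubiquitin-like modifier, was at 17.9, 11.2 and 12.4 CPM in shDis3l2 and at 2.55, 0.937 and 1.53 CPM in shNS (log2 fold change 3.06, adjusted p = 0.00797). Irf9, which encodes a DNA-binding factor of the pathway, was higher as well (1.35, adjusted p = 0.0207). Irf7, which amplifies interferon production, averaged 193 CPM in shDis3l2 and 12.6 CPM in shNS (3.94, adjusted p = 0.0283). Ifnar2, a subunit of the interferon receptor, was also higher (0.71, adjusted p = 0.0373). These gaps were present without doxycycline (1 library each, no test). The ratio of shDis3l2 to shNS there was 12.5 for Irf7, 4.31 for Isg15, 2.42 for Irf9 and 1.71 for Ifnar2. The log2 effect of doxycycline in shDis3l2 was 2.47 for Irf7, 2.35 for Isg15, 0.83 for Irf9 and 0.054 for Ifnar2. Of the interferon genes only Ifnb1 and Ifna4 were looked at, and both were at the limit. Ifnb1 had 1 count in the 3 shDis3l2 doxycycline libraries, 0 in the 3 of shNS and 2 in shDis3l2 without doxycycline. Ifna4 had 0 counts in all 8 libraries.

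Of 22 targets and partners of these TRIM proteins, edgeR called 2 higher in shDis3l2 with doxycycline and 0 lower, with a median log2 fold change of -0.0089. They were the DNA sensor Cgas, a partner of Trim14 (1.11, adjusted p = 0.0107), and Tmem173, which encodes STING, a target of Trim30a (0.57, adjusted p = 0.0465). Without doxycycline (1 library each, no test) the ratio of shDis3l2 to shNS was already 1.44 for Cgas and 1.56 for Tmem173. Here too line and the split within shNS cannot be told apart. The log2 effect of doxycycline was 0.26 for Cgas and -0.11 for Tmem173 in shDis3l2, and -0.32 for Cgas and -0.040 for Tmem173 in shNS. Tab2 (0.35, adjusted p = 0.165), Tab3 (-0.057), Traf6 (-0.17) and Mavs (-0.39) were not called.

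The 5 genes whose profile over the 8 libraries lay nearest to the mean profile of the 6 TRIM genes were Irgm1, Slfn5, Tmem165, Clock and Herc6. The measure was the root mean square difference of centred log2 CPM, from 0.15 for Irgm1 to 0.23 for Herc6. Irgm1, an immunity-related GTPase, was at 75.3, 71.6 and 75.6 CPM in shDis3l2 with doxycycline, at 29.7, 31.5 and 29.8 CPM in shNS with doxycycline, and without it at 38.6 CPM in shDis3l2 and 29.0 CPM in shNS. Of the TRIM genes themselves Trim34a (0.29), Trim30a (0.29) and Trim12c (0.31) were nearest to their own mean, and Trim30d (1.29) farthest. Trim30d enters that mean with centred values of 2.10 to 2.73 in shDis3l2 with doxycycline, where Trim14 was at 0.12 to 0.49. It passed the filter only through that group, so the mean and the genes nearest to it depend in part on this low-count gene.

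The labels and libraries were checked as follows. Dis3l2 averaged 13.5 ± 1.46 CPM in shDis3l2 and 27.9 ± 5.54 CPM in shNS with doxycycline (SD, n = 3 each, adjusted p = 0.0216), and was at 28.6 CPM in shDis3l2 and 29.7 CPM in shNS without it. All 8 macrophage markers were present, with a summed level of 6169 to 8513 CPM in shDis3l2 and 7152 to 10765 CPM in shNS with doxycycline. Of these Adgre1, which encodes F4/80, was low in shDis3l2 (7.09 to 25.9 CPM against 63.0 to 121 CPM in shNS). Summed T cell, B cell, fibroblast and epithelial markers stayed under 0.26 CPM in every library, with Cd3e, Cd8a, Trac, Ms4a1, Col1a2, Pdgfra, Dcn, Epcam, Krt8, Krt18 and Cdh1 at 0. The 4 dendritic cell markers summed to 1.92 to 2.7 CPM in shDis3l2 and 2.13 to 4.16 CPM in shNS with doxycycline, and of these Siglech was at 0.502 to 0.875 CPM in shDis3l2 and had 0 counts in shNS. The 4 neutrophil markers summed to at most 0.118 CPM in shDis3l2 and to 0.126 to 19.1 CPM in shNS with doxycycline, and to 40.9 CPM in shNS without it, with S100a9 and Ly6g at 0. In shNS with doxycycline replicate 2 stood apart. Across genes it correlated at 0.984 with shNS without doxycycline, at 0.939 with replicate 1 and at 0.945 with replicate 3 (genes are no replicates). Replicates 1 and 3 correlated at 0.974. The part of these markers and of this split in the TRIM values was not tested, and the fold changes without shNS replicate 2 were 1.35 for Trim30a, 4.78 for Trim30d and 0.64 for Trim12c.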

How the data were processed

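Expected counts, 1 value per gene and library, were deposited as RSEM output without normalization. Per the submitters' processing notes the tools were cutadapt, STAR 2.7 and RSEM, with builds GRCm38 and mm10. Not given in the sources used here: other versions, annotation release and strand setting. Per the labels' protocols the kit was stranded, with ribosomal RNA removed, and reads were 150 nt pairs. All 55450 identifiers matched GENCODE M21. Columns were matched to samples by library name.

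Expected counts were rounded (4.68 to 5.24% of values in a library were not whole). RSEM divides reads among similar genes, so paralog values are estimates. Genes passed edgeR's filterByExpr (minimum count 10), libraries were scaled by TMM, and genes were tested by edgeR (quasi-likelihood) with Benjamini-Hochberg adjustment over all genes, threshold 0.05, two-sided (R 4.3.3, edgeR 4.0.16, limma 3.58.1, DESeq2 1.42.0). The SE is the unshrunk log2 fold change over the square root of F. The comparison of lines used the 6 doxycycline libraries, and the doxycycline effects used all 8 as 4 groups. CPM values were scaled over all 8. Counting intervals (95%, exact binomial) and floors cover counting error only. The fit was also run on counts simulated with independent libraries and no split within shNS. That run cannot speak to dependence between replicates or to that split. No replicate pair agreed within counting noise (chi-square per gene of at least 18.1).

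The TRIM genes, lists and tests were chosen with earlier results of these data known. The genes named are these 7, then up to 4 of each list and up to 6 of the family and cluster with the smallest adjusted p. Then come the 5 of nearest profile, and Dis3l2. Others named (Tab2, Tab3, Traf6, Mavs, Ifnar2, Ifnb1, Ifna4, Trim5, Trim25, Trim34b, Trim30c, Adgre1 and the genes around Trim14) were chosen after their values were seen. Protein sequences were not used here, and 1 gene of the interferon list is counted in it but not reported here. Alternatives were DESeq2 size factors, library size alone, no filter on low counts, a filter of 1 CPM in 3 libraries, the DESeq2 test, limma-voom, the replicate block, all 8 libraries in 1 fit, paralogs summed, and fits that dropped 1 doxycycline library at a time. For the ratio without doxycycline the other scalings were added after seeing the data.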

Additional observations from a re-analysis of the deposited data

How the results depend on the processing

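The number of TRIM genes called between the lines with doxycycline was 3, and it was 2 to 4 over 9 alternatives and 1 to 3 when 1 library was left out. Trim30a was called in all of them. Trim30d was lost without any shDis3l2 library, Trim12c without any library but shNS replicate 1, and Trim34a was gained with DESeq2. With paralogs summed the count was 4, as Trim12a counts through its sum with Trim12c. Trim30a and Trim30d then also share 1 sum, so the 4 come from 2 summed rows. The genes called in all, 845, became 1749 with DESeq2, 421 with the replicate block and 203 to 1157 with 1 library left out (203 without shDis3l2 replicate 2, 259 without replicate 3, 464 without replicate 1). The replicate numbers share no origin in the labels. Deviations of same-numbered libraries correlated at -0.13, 0.026 and -0.00096 for replicates 1, 2 and 3, which shows no pairing by number. With 3 libraries per group these values cannot exclude pairing. With the block Trim12c was at an edgeR adjusted p of 0.0698, and 2 of the TRIM genes were called. For the doxycycline effect in shDis3l2 DESeq2 called 1 TRIM gene among 64 genes, against 0 TRIM genes and 0 genes by edgeR. Small effects of doxycycline in shNS changed sign in 2 genes: Trim34a to -0.071 without shNS replicate 1 (-0.071 to 0.14 with 1 library left out), and Trim21 to -0.11 without shNS replicate 3 (-0.11 to 0.20). Without shNS replicate 2 edgeR called 544 genes for doxycycline in shNS and 121 for the difference between lines, none of them among these TRIM genes. The cause of these changes was not tested. Depth limits Trim30d, which had at most 5 counts in each library outside shDis3l2 with doxycycline. In the main fit Trim30d passed the filter only through that group.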
